A study of Saccharomyces pastorianus Weihenstephan 34/70 with 7 samples.

Results

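The minor hexose and polyol carriers are the less studied members of the HXT family of yeast sugar transporters, listed here as 9 genes: HXT8, HXT9, HXT10, HXT11, HXT13, HXT14, HXT15, HXT16 and HXT17. They were chosen by gene symbol among the probe sets of the array, and 8 of the 9 were measured, out of 5635 S. cerevisiae genes. No probe set carried the symbol HXT16, and that gene was not analysed here. The array held 11 probe sets for the 8 genes, since HXT9, HXT13 and HXT17 had more than 1 each, and the probe set with the highest mean over the arrays was used.

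The samples were stationary phase cells of the lager brewing yeast Weihenstephan 34/70, fermenting wort of 21 °Plato (the sugar content of the medium) made strong with glucose syrup or with maltose syrup, with or without Flavourzyme. Flavourzyme is a fungal peptidase mixture that releases amino acids from wort proteins. Without Flavourzyme there were 2 arrays of glucose wort (the glucose controls) and 2 of maltose wort (the maltose controls), and with it 2 arrays of glucose wort and 1 of maltose wort, all of the same strain. The study's text states that sampling times varied with the wort and with the enzyme, so an effect of either and one of sampling time cannot be told apart. The study's text states that each condition was fermented in duplicate and that RNA was also sampled in duplicate. Nothing in the labels says that duplicate arrays were separate fermentations, so the p-values measure the spread between these arrays, which may be technical. Lager yeast is a hybrid of S. cerevisiae and a cold-tolerant relative, while the probes follow S. cerevisiae, and transcripts of the other parent were not measured apart.

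In S. cerevisiae the main glucose uptake is carried by HXT1 to HXT4, HXT6 and HXT7, and the genes described here are usually weakly expressed. HXT13, HXT15, HXT16 and HXT17 form a group of closely similar genes, whose proteins can carry the sugar alcohols mannitol and sorbitol. HXT9 and HXT11 are close copies of each other that have been tied to drug resistance through the transcription factors Pdr1 and Pdr3, HXT14 has been linked to galactose, and little is known of HXT8. Glucose represses many sugar transporter genes through the Mig repressors and tunes others through the Snf3 and Rgt2 sensors and the repressor Rgt1.

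Values are RMA signals on a log2 scale, so a difference of 1 is a doubling. They are compared between arrays within a gene and never between genes. As a guide to background, the 95th percentile of the probe sets for the fission yeast S. pombe lay at 4.96, and 95.3% of the S. cerevisiae genes had a mean above it. HXT8, HXT9 and HXT17 were above this level on all 7 arrays and HXT13 on 5, while HXT10 and HXT11 were above it on 1 array each and HXT14 and HXT15 on none. Probe sets whose names end in _s_at or _x_at can bind several similar transcripts. Those used for HXT9, HXT15 and HXT17 (_s_at) and for HXT13 (_x_at) are of this kind. In these sets the source of a signal cannot be told apart among HXT13, HXT15, HXT16 and HXT17, or between HXT9 and HXT11. HXT11 was read by a set without a suffix, and HXT9 and HXT13 had such a set beside the one used.

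**Figure D1:**
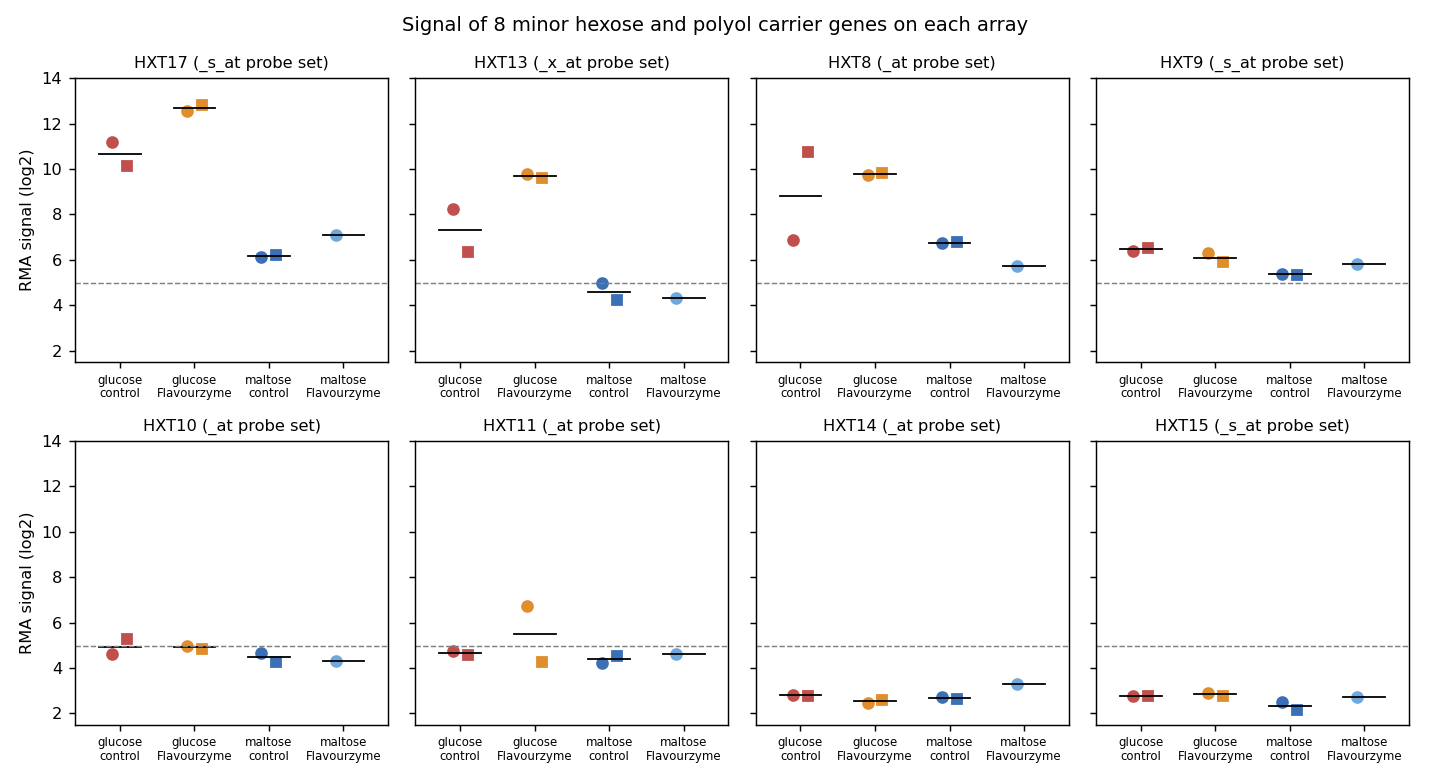
Each point is the RMA signal (log2) of the gene on 1 array, circles for replicate 1 and squares for replicate 2, by group on the horizontal axis. The black line is the group mean and the dashed grey line is the S. pombe level of 4.96. HXT17 and HXT13 were higher on every glucose array than on any maltose array, and HXT14 and HXT15 stayed under the dashed line throughout.

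The first question was how the wort, glucose or maltose, went with the signal of these genes. The wort effect is the mean of the maltose groups minus the mean of the glucose groups. Genes were called at an adjusted p under 0.05 (limma, Benjamini-Hochberg over all genes) and a log2 fold change beyond 1.30. HXT17, HXT13 and HXT8 were lower in maltose wort by this rule, and HXT9 was lower by adjusted p alone, with a smaller fold. Thus 3 of the 8 measured genes were called lower, where 3.57% of all genes were, and 4 of the 8 by adjusted p alone, where 11.3% of all genes were. The median wort effect of the 8 was -0.63, beside 0.26 over all genes. Of the 8, 7 were negative, as were 36.9% of all genes. Both figures include HXT10, HXT11, HXT14 and HXT15, which were above the background guide on at most 1 array. With values under the guide raised to it, the wort effect was 0 for HXT14 and HXT15, -0.07 for HXT10 and -0.44 for HXT11. Neither figure therefore shows a direction shared by all 8. Over all genes 496 were called in either direction. This count fell to 10 and 11 without replicate 1 or 2 of the maltose controls and to 38 and 0 without replicate 1 or 2 of glucose wort with Flavourzyme. Fewer of the members were called in each of these settings than in the full fit, while leaving out either glucose control did not lower that count. Without the maltose Flavourzyme array the wort effect is, here and below, the maltose controls minus the glucose controls alone. In that setting 758 genes were called, with 2 members among them.

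HXT17, a polyol carrier, had the widest separation of the members. Its signal was 11.2 and 10.1 in the glucose controls, 12.6 and 12.8 in glucose wort with Flavourzyme, 6.13 and 6.21 in the maltose controls and 7.10 in maltose wort with Flavourzyme. The worts did not overlap, and every glucose array was over 3 log2 units above the highest maltose array. The wort effect was -5.05 (SE 0.29, adjusted p = 0.00248 by limma), a 33.1-fold lower signal in maltose wort and the 2nd lowest value of the 5635 genes. The group means ran from 12.7 ± 0.201 (SD, n = 2) in glucose wort with Flavourzyme through 10.7 ± 0.761 (n = 2) in the glucose controls and 7.10 (n = 1) in maltose wort with Flavourzyme to 6.17 ± 0.0563 (n = 2) in the maltose controls. The pair of neighbours within each wort did not pass the test, with limma's adjusted p at 0.701 in glucose wort and 0.304 in maltose wort. On leaving out 1 array at a time the call held in all settings but 1, without replicate 2 of glucose wort with Flavourzyme, where the effect was -4.98 with an adjusted p of 0.0528.

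HXT13, also a polyol carrier, followed the same order between worts. Its signal was 8.24 and 6.36 in the glucose controls, 9.79 and 9.60 in glucose wort with Flavourzyme, 4.97 and 4.24 in the maltose controls and 4.31 in maltose wort with Flavourzyme. Again the worts did not overlap, but the glucose controls were far apart and the maltose arrays lay near or under the background guide. The wort effect was -4.04 (SE 0.49, adjusted p = 0.00907) as measured. With values under the guide raised to 4.96 the signal of this _x_at set was at least 11.6-fold lower. The adjusted p was 0.069 and 0.0687 without replicate 1 or 2 of the maltose controls, 0.0573 and 0.0643 without replicate 1 or 2 of glucose wort with Flavourzyme, and 0.0607 without moderation of the spread.

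The other probe sets gave a second reading of these genes from the same arrays. The second HXT17 probe set (_x_at) read 8.50 and 7.25 in the glucose controls, 10.2 and 10.2 in glucose wort with Flavourzyme, 4.35 and 3.64 in the maltose controls and 5.13 in maltose wort with Flavourzyme. It gave a wort effect of -4.47 (adjusted p = 0.00544), or at least 15.8-fold lower with the floor at 4.96, and ordered the groups as the first did. The HXT13 probe set without a suffix read 6.72 and 6.39 in the glucose controls, 7.67 and 7.69 in glucose wort with Flavourzyme, 4.32 and 6.10 in the maltose controls and 5.24 in maltose wort with Flavourzyme. Its worts did not overlap either, but the effect was smaller, at -1.89 (adjusted p = 0.0262 by limma), or 3.32-fold lower with the floor at 4.96. The suffixed minus the unsuffixed HXT13 signal ranged from -1.86 on replicate 2 of the maltose controls to 2.12 on replicate 1 of glucose wort with Flavourzyme, and the difference in wort effect between both sets was not tested. Over the 7 arrays, which share all their libraries, the suffixed HXT13 set followed HXT17 (Pearson r = 0.967) and the second HXT17 set (r = 0.977) more closely than its own unsuffixed set (r = 0.859).

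**Figure D2:**
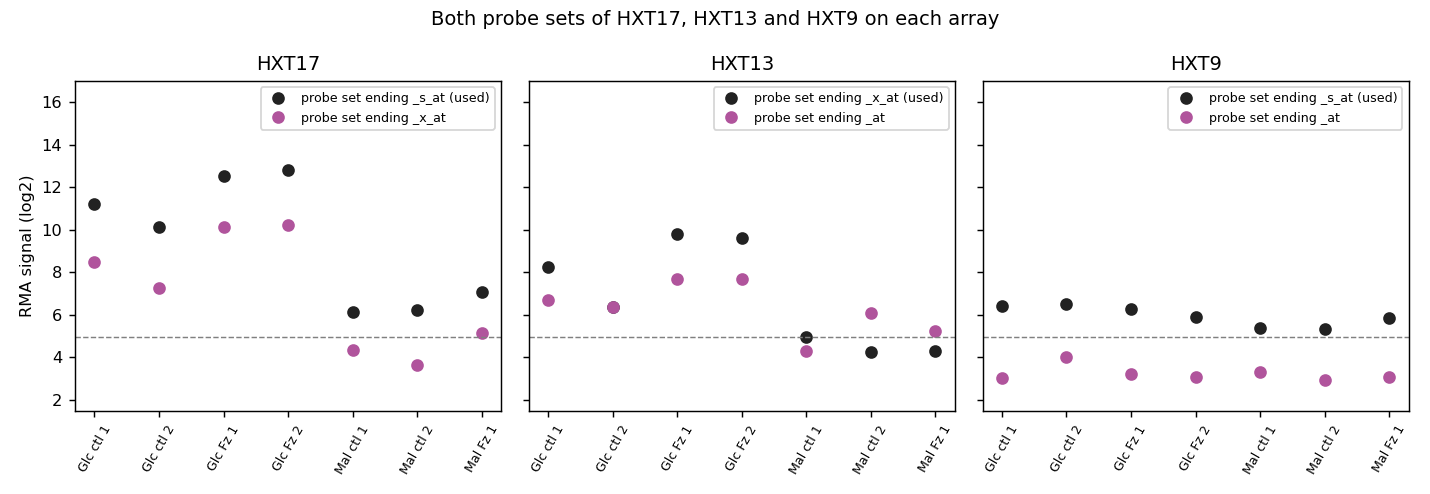
Points are RMA signals (log2) of each of the probe sets of HXT17, HXT13 and HXT9 on the 7 arrays (Glc, glucose wort; Mal, maltose wort; ctl, control; Fz, Flavourzyme; the digit is the replicate), with the dashed line at 4.96. Both HXT17 sets separated the worts widely, the HXT13 sets by different amounts, and the unsuffixed HXT9 set stayed under the line.

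HXT8, a carrier of little known function, was the third gene called. Its signal was 6.86 and 10.7 in the glucose controls, 9.73 and 9.81 in glucose wort with Flavourzyme, 6.73 and 6.77 in the maltose controls and 5.73 in maltose wort with Flavourzyme. The worts did not overlap, but replicate 1 of the glucose controls sat almost at the level of the maltose controls, 3.88 below replicate 2, a gap that 0.142% of all genes exceeded in that group. The wort effect was -3.05 (SE 0.91, adjusted p = 0.0489), 8.26-fold lower and the 22nd lowest of all genes, and the group mean of the glucose controls was 8.80 ± 2.74 (SD, n = 2). The call was lost without moderation (adjusted p = 0.185). It was also lost without either maltose control or either array of glucose wort with Flavourzyme, where the effect ran from -3.07 to -3.03. The controls alone, without the maltose Flavourzyme array, gave -2.05 (adjusted p = 0.221 by limma), which did not pass. Without replicate 1 of the glucose controls the effect was -4.02, and without replicate 2 it was -2.08.

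HXT9, one of the pair tied to drug resistance, moved less. Its _s_at set read 6.41 and 6.52 in the glucose controls, 6.29 and 5.89 in glucose wort with Flavourzyme, 5.39 and 5.33 in the maltose controls and 5.83 in maltose wort with Flavourzyme. Every glucose array was above every maltose array, though the maltose Flavourzyme array (5.83) came within 0.1 of the lowest glucose array. The wort effect was -0.68 (SE 0.17, adjusted p = 0.0299), short of the fold threshold, and it was -1.20 (adjusted p = 0.0179) when the arrays were normalized over the S. cerevisiae probe sets alone. The pass by adjusted p was lost without moderation (0.0763), with a trend and robust prior (0.0603), with the mean of both probe sets (0.127), with a replicate block (0.0505), without replicate 1 or 2 of the maltose controls (0.134 and 0.144) and without replicate 1 or 2 of glucose wort with Flavourzyme (0.0903 and 0.0721). Without the maltose Flavourzyme array, on the controls alone, the effect was -1.10. The unsuffixed HXT9 set lay between 2.93 and 4.04 on all arrays, under the background guide, and gave -0.25 (adjusted p = 0.518).

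The other 4 members did not pass the test for the wort effect. HXT11, the close copy of HXT9, read 4.73 and 4.57 in the glucose controls, 6.74 and 4.24 in glucose wort with Flavourzyme, 4.23 and 4.53 in the maltose controls and 4.61 in maltose wort with Flavourzyme. Only replicate 1 of glucose wort with Flavourzyme stood above the guide, and its gap of 2.50 to replicate 2 was the largest of all genes in that group. HXT11 had a wort effect of -0.57 (SE 0.60, adjusted p = 0.472). HXT10, a hexose carrier known in S. cerevisiae from meiosis, lay between 4.28 and 5.26, with a wort effect of -0.52 (SE 0.22, adjusted p = 0.117). HXT14 lay between 2.47 and 3.27 (0.31, SE 0.14, adjusted p = 0.133) and the polyol carrier HXT15 between 2.12 and 2.91 (-0.27, SE 0.17, adjusted p = 0.239). HXT14 and HXT15 never rose above the background guide, so these values do not show whether their transcripts differed between the worts.

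The wort difference was then taken within each Flavourzyme state, at an adjusted p under 0.05. Without Flavourzyme, HXT17 (-4.50, SE 0.37, adjusted p = 0.00588), HXT13 (-2.70, SE 0.62, adjusted p = 0.0284) and HXT9 (-1.10, SE 0.21, adjusted p = 0.0188) were lower in the maltose controls, 3 of 8 members beside 9.81% of all genes. HXT8 had -2.05 (SE 1.15, adjusted p = 0.221) there, but -3.99 without replicate 1 of the glucose controls and -0.11 without replicate 2. With Flavourzyme, HXT17 (-5.60, SE 0.45, adjusted p = 0.026) and HXT13 (-5.38, SE 0.76, adjusted p = 0.044) were lower, 2 of 8 beside 1.10% of all genes, and HXT8 had -4.04 (SE 1.41, adjusted p = 0.126). With maltose values under the guide raised to 4.96, the _x_at set of HXT13 was at least 5.04-fold lower without Flavourzyme and at least 26.5-fold lower with it. With the same floor the unsuffixed HXT13 set was 2.03-fold lower without Flavourzyme and 5.43-fold lower with it. The comparison with Flavourzyme has a single maltose array, whose spread is assumed to be like that of the other groups. Its calls ended under a replicate block, which left 0 members called, and without moderation, which also left 0. Leaving out either maltose control, or either glucose Flavourzyme array, left 0 members called in it, and leaving out either maltose control also left 0 called without Flavourzyme.

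**Figure D3:**
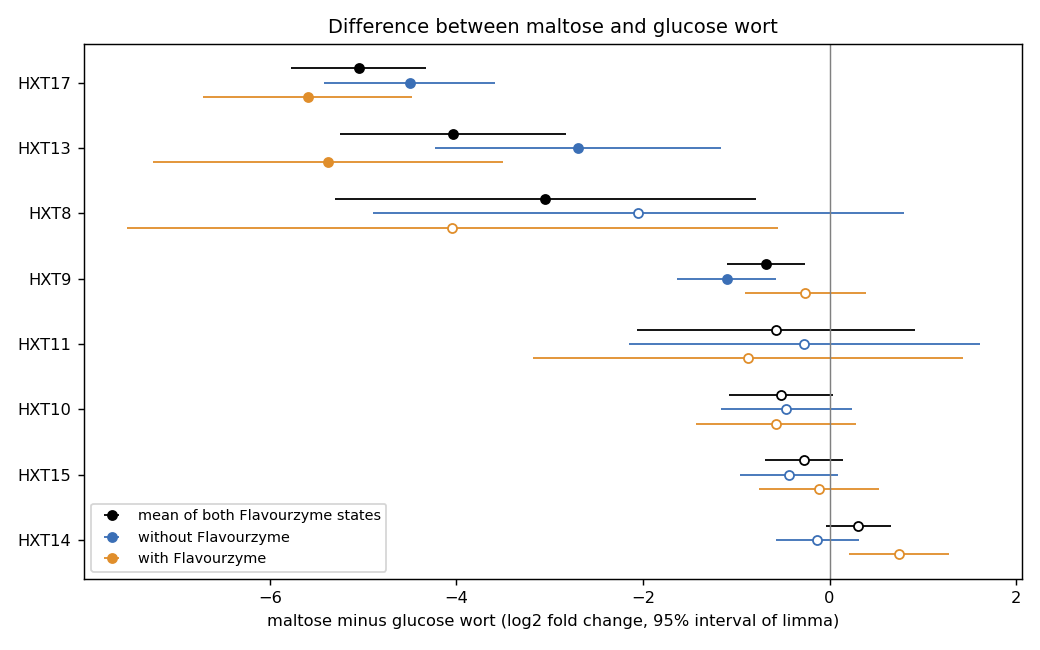
Each point is the maltose minus glucose difference of a gene (log2 fold change, horizontal axis) over both Flavourzyme states (black), without Flavourzyme (blue) and with it (orange), with limma's 95% interval as the bar. Filled points have an adjusted p under 0.05, which HXT17 and HXT13 reach in each of the 3 comparisons, with effects between -5.60 and -2.70.

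The second question was whether Flavourzyme changed these genes. The Flavourzyme effect, the mean of the Flavourzyme groups minus that of the controls, passed for 0 of the 8 members, and 0.0355% of all genes were called. By unadjusted p under 0.05 limma gave 1 member, HXT17 (1.48, SE 0.29, adjusted p = 0.197, the 10th highest of all genes), and the fit without moderation called 0 members, with 2 at an unadjusted p under 0.05. HXT13 had 1.05 (adjusted p = 0.367), HXT9 0.05 (adjusted p = 0.93) and HXT8 -0.02 (adjusted p = 0.995), with a sign that turned when the arrays were scaled otherwise.

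In glucose wort, HXT13 and HXT17 stood among the highest Flavourzyme differences without passing the test. HXT13 was 2.40 higher with Flavourzyme (SE 0.62, adjusted p = 0.701, the 3rd highest of all genes) and HXT17 2.02 higher (SE 0.37, adjusted p = 0.701, the 6th highest), and neither gene's arrays overlapped between the enzyme states. In this comparison limma called 0 of 5635 genes (0%), with 393 genes and 2 members at an unadjusted p under 0.05, and the fit without moderation also called 0. The pooled spread includes the glucose controls, whose duplicates differed by a median of 0.522 over all genes, beside 0.194 in glucose wort with Flavourzyme and 0.0846 in the maltose controls. Without replicate 1 of the glucose controls HXT13 had 3.33 and HXT17 2.56. Without replicate 2 they had 1.46 and 1.48. Each of these fits keeps 1 glucose control, so only effect sizes are given. For HXT8 the difference was 0.97 (adjusted p = 0.881), but -0.97 without replicate 1 and 2.91 without replicate 2 of the glucose controls, so its direction depended on which control was kept.

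In maltose wort the Flavourzyme difference passed for 0 of 8 members, beside 1.99% of all genes, with 1 member (HXT14, under the background guide) at an unadjusted p under 0.05 by limma and 0 called without moderation. HXT17 had 0.93 (adjusted p = 0.304), HXT9 0.47 (adjusted p = 0.359), HXT13 -0.29 (adjusted p = 0.88) and HXT8 -1.02 (adjusted p = 0.74). The test of whether the Flavourzyme effect differed between worts, the interaction, passed for 0 of 8 members, beside 0.0355% of all genes, with 3 members (HXT9, HXT13 and HXT14) at an unadjusted p under 0.05 and 0 called without moderation. HXT13 had -2.68 (SE 0.98, adjusted p = 0.232), HXT8 -2.00 (adjusted p = 0.605), HXT17 -1.09 (adjusted p = 0.369) and HXT9 0.84 (adjusted p = 0.257). Without replicate 1 of the glucose controls the interaction was -3.62 for HXT13, -1.63 for HXT17 and -0.057 for HXT8. Without replicate 2 it was -1.75, -0.56 and -3.93 in the same order. Each of these fits keeps 1 glucose control, which takes that group's gap out of the spread, so only effect sizes are given.

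The enzymes that act on sugar alcohols were described next to the polyol carriers. In S. cerevisiae several of the carrier genes lie beside such an enzyme gene, HXT13 beside DSF1 and HXT15 beside SOR2. Of the 8 polyol enzyme genes listed 6 were measured (SOR1 and MAN2 were not analysed here), and 2 were called lower and 2 higher in maltose wort, where 3.57% of all genes were lower and 5.24% higher. On leaving out 1 array at a time, 0 to 5 of them were called. SOR2, a sorbitol dehydrogenase gene read by an _s_at set, was 10.7 and 10.9 in the glucose controls, 11.4 and 11.4 in glucose wort with Flavourzyme, 8.45 and 8.31 in the maltose controls and 9.85 in maltose wort with Flavourzyme. Its wort effect was -2.00 (SE 0.14, adjusted p = 0.00381 by limma). In maltose wort SOR2 was 1.47 higher on the 1 Flavourzyme array than in the controls (SE 0.22, adjusted p = 0.0461 by limma). In that comparison 1.99% of all genes were called. DSF1, a gene for a mannitol dehydrogenase-like protein also read by an _s_at set, was 13.0 and 12.1, 13.4 and 13.4, 10.7 and 10.7, and 11.1 in the same order, with a wort effect of -2.11 (SE 0.26, adjusted p = 0.00907). The Flavourzyme difference of DSF1 in maltose wort was 0.46, which did not pass. Both genes were above their highest maltose array on every glucose array. Whether other transcripts, such as those of SOR1 or MAN2, added to these _s_at signals was not tested. Without replicate 1 or 2 of the maltose controls the adjusted p of the wort effect was 0.0569 and 0.0618 for SOR2 and 0.0766 and 0.0738 for DSF1. Without replicate 1 or 2 of glucose wort with Flavourzyme it was 0.0476 and 0.0537 for SOR2 and 0.0571 and 0.0643 for DSF1. XYL2, the xylitol dehydrogenase gene (1.64, adjusted p = 0.00922 by limma), and GRE3, an aldose reductase gene (1.58, adjusted p = 0.0161), were higher in maltose wort. Both calls were lost on leaving out either maltose control or either array of glucose wort with Flavourzyme.

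Of the main hexose carriers 7 of 8 were measured, and 5 were called lower in maltose wort, beside 3.57% of all genes, with none higher. Leaving out either maltose control or either glucose Flavourzyme array left 0 called, and leaving out the maltose Flavourzyme array left 6. They included HXT3 (-2.98, adjusted p = 0.00827), HXT7 (-2.57, adjusted p = 0.00855), HXT1 (-1.84, adjusted p = 0.00922) and HXT2 (-5.80, adjusted p = 0.0128). The median of these 7 was -2.57. Without the maltose Flavourzyme array, on the controls alone, HXT3 had -1.86 and HXT7 -1.32. HXT7 was read by an _s_at set and no set carried the symbol HXT6, so the source of that signal cannot be told apart. Of 14 genes of glucose sensing and repression, 5 were called lower, beside 3.57% of all genes, and 0 higher, among them STD1 (-2.45, adjusted p = 0.0047), which acts with Rgt1 on the HXT genes, and the repressor genes MIG1 (-2.46, adjusted p = 0.0102) and MIG3 (-2.45, adjusted p = 0.0105). By adjusted p alone 7 of the 14 were lower, MIG2 (-1.16, adjusted p = 0.00922) among them, and 3 were higher, beside 11.3% and 23.0% of all genes. Leaving out either maltose control or either glucose Flavourzyme array left 0 of the 14 called, and without the maltose Flavourzyme array MIG2 had -0.34 (adjusted p = 0.206). Of 3 maltose carriers measured, MAL11 was called lower in maltose wort (-1.83, adjusted p = 0.00827), a call held on leaving out either glucose control but lost on leaving out any other array. MAL31 had 0.49 (adjusted p = 0.112) and was higher in the maltose controls than in the glucose controls (1.11, adjusted p = 0.0311). MPH2, read by an _s_at set, had 0.19 (adjusted p = 0.354).

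Of 10 genes of the Pdr1 and Pdr3 drug resistance group, which has been linked to HXT9 and HXT11, 0 were called for the wort effect by limma with both thresholds. By adjusted p alone 2 were higher (PDR3 0.66, adjusted p = 0.0273, and the pump gene PDR5 1.12, adjusted p = 0.0374) and 3 lower, among them the pump genes SNQ2 (-1.04, adjusted p = 0.0107) and TPO1 (-0.74, adjusted p = 0.0184). Without the maltose Flavourzyme array TPO1 had -1.90 and PDR5 2.36, while in the comparison of worts with Flavourzyme TPO1 had 0.42 (adjusted p = 0.246) and PDR5 -0.13 (adjusted p = 0.863). On leaving out 1 array at a time, 0 to 3 of the 10 were called.

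Likeness of pattern was taken as Pearson r over the 7 arrays, against the 384 genes with an SD of at least 1, and is a description in which all points share the same 7 libraries. For HXT17 the closest genes were DSF1 (r = 0.993), YOR062C, a gene of unknown function (0.988), and STD1 (0.974). For HXT13 they were DSF1 (0.974), YOR062C (0.945) and MAL11 (0.909). For HXT8 they were DLD1, a D-lactate dehydrogenase gene (0.992), FBP1 of gluconeogenesis (0.990) and HXT4 (0.981). For HXT9 they were CIT2, the peroxisomal citrate synthase gene (0.945), EDC1, a decapping factor gene (0.934), and CYC1, a cytochrome c gene (0.929). Of the 384 genes, 49 had an r over 0.9 with HXT17, 39 with HXT8, 14 with HXT9 and 7 with HXT13. The genes named are therefore not the only ones with a like pattern.

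**Figure D4:**
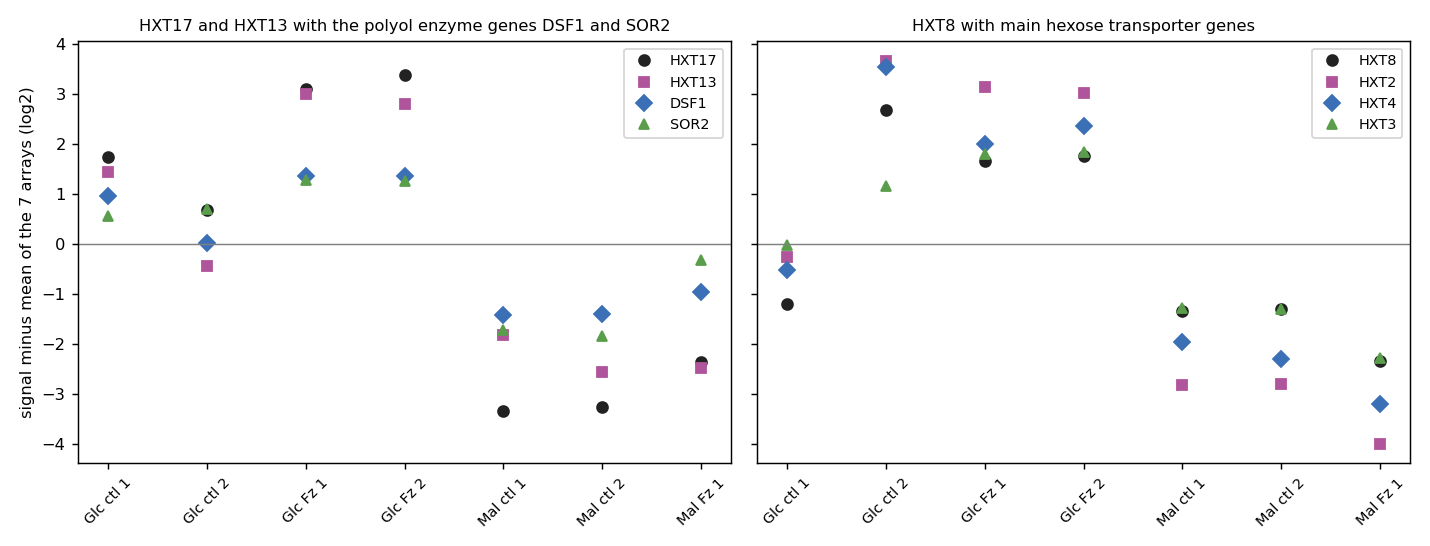
Signals minus the mean over the 7 arrays (log2) are shown for HXT17, HXT13, DSF1 and SOR2 (left) and for HXT8, HXT2, HXT4 and HXT3 (right), with the arrays on the horizontal axis named as Glc or Mal wort, ctl or Fz, and replicate. On the left all glucose arrays but the HXT13 value of glucose control 2 were above the mean, and on the right HXT8 was low on glucose control 1.

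The duplicates of the glucose controls differed in opposite directions for some of the members. HXT8 was 3.88 lower on replicate 1 than on replicate 2, as were HXT2 (9.84 and 13.8), HXT4 (9.12 and 13.2) and FBP1 (9.03 and 12.5). HXT13 and HXT17 went the other way, 1.88 and 1.08 higher on replicate 1, gaps that 4.03% and 18.7% of all genes exceeded in that group. DSF1 was 0.937 higher on replicate 1. The unsuffixed HXT13 set differed less, at 6.72 and 6.39. A gap over 1 was found for 21.5% of all genes in the glucose controls, so gaps of the size seen for HXT17 and DSF1 were common there. Probe sets for ribosomal RNA, whose mean over 17 sets ran from 8.70 to 8.74 in the maltose controls was 9.61 in maltose wort with Flavourzyme and ran from 11.2 to 13.2 on the glucose arrays, were also higher in glucose wort, and their part in the result was not tested. Signals are relative to all RNA of a culture, so fewer cells with a transcript and less of it per cell cannot be told apart.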

How the data were processed

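Expression was measured on Affymetrix yeast arrays in 7 samples. The authors made the deposited log2 values with RMA of the affy package (background correction, quantile normalization over all probe sets, median polish), with MAS5 also named in the submitters' processing notes. The sources used here do not give their versions or a genome build. No deposited value was altered. Of 10928 probe sets, 5685 name S. cerevisiae genes. The set with the highest mean was kept for each of 48 genes with several, which gave 5635 genes tested with no filter on low signals.

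Group means were fitted by limma 3.58.1 in R 4.3.3, leaving 3 residual degrees of freedom, and spreads were moderated with eBayes (prior SD 0.251 on 2.78 prior degrees of freedom). The maltose Flavourzyme group has 1 array, so its spread is taken from the others. Adjusted p-values are Benjamini-Hochberg over all genes. The fold threshold of 1.30 on the log2 scale equals -log10(0.05), and whether the study meant it as a fold is uncertain, so counts by adjusted p alone are given too. On simulated data with 5635 genes and 200 changed by a log2 fold of 2, the wort test recovered 97% and called 0 unchanged genes. At a log2 fold of 4 it recovered 100% and called 3 unchanged. The simulated noise was independent between arrays, with 1 spread per gene in all groups. The real duplicates had median gaps from 0.0846 to 0.522, so these rates do not carry over to the data. The number of arrays limits the precision.

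The genes named are the 9 listed members, up to 4 genes of each of 5 lists with the smallest p in the wort effect, and for each member above background on at least 2 arrays the 3 genes most like it. HXT4, FBP1 and others named beside the glucose controls were picked once their values had been seen. The members and lists were chosen with earlier results of these data known. Alternatives were another normalization, median centring, a filter at 4.96, no moderation, a trend and robust prior, the mean of all probe sets, a replicate block, other probe sets (added after seeing the data) and leaving out each array.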

Additional observations from a re-analysis of the deposited data

How the results depend on the processing

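With no moderation of the spread, the count of members called fell from 3 to 1 for the wort effect, from 3 to 1 for the wort effect without Flavourzyme and from 2 to 0 with it. With the unsuffixed probe sets of HXT9 and HXT13, chosen after seeing the data, it was 1 without and 1 with Flavourzyme. Leaving out each array in turn gave 0 to 3 members for the wort effect, 0 to 2 for the Flavourzyme effect, 0 to 3 for the interaction, 0 to 5 for the wort effect without Flavourzyme, 0 to 4 with it, 0 to 3 for Flavourzyme in glucose wort and 0 to 3 in maltose wort. The higher counts came from leaving out a glucose control, which takes that group's gap out of the spread. With 3 residual degrees of freedom in all, a lost call says little about the size of the effect.

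Deviations of same-numbered arrays correlated at 0.182, 0.00736 and 0.102 between the duplicated groups. The labels do not say whether replicate numbers pair the arrays, and these correlations cannot settle it. A replicate block gave 0 members in the wort effect with Flavourzyme and an HXT8 wort effect of -2.71 (adjusted p = 0.0586), and changed no other count of members by over 1.5 times.

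Small effects changed sign. The Flavourzyme effect of HXT8 was 0.13 with quantile normalization over the S. cerevisiae sets, 0.034 with median centring, 0.31 with the replicate block and -0.99 to 0.97 on leaving out arrays. That of HXT9 was -0.079 with the mean of its sets, -0.21 with the unsuffixed set and -0.37 to 0.15 on leaving out arrays. MPH2 had a wort effect of 0.19 (adjusted p = 0.354) as deposited and -0.40 with quantile normalization over the S. cerevisiae sets. In maltose wort the unsuffixed sets gave Flavourzyme effects of -0.032 for HXT9 and 0.031 for HXT13, and HXT13 ran from -0.65 to 0.077 on leaving out arrays. In glucose wort HXT8 ran from -0.97 to 2.91. The wort effect of HXT11 ran from -1.20 to 0.052, the latter without replicate 1 of glucose wort with Flavourzyme, and that of HXT14 from -0.13, without the maltose Flavourzyme array, to 0.33. The cause of these changes was not tested.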
